A study of Mus musculus with 6 samples.

Results

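Liver clears many drugs, toxins and metabolites with phase I enzymes that do not belong to the cytochromes P450. Their genes were taken from the deposited expression table by name, as every row whose symbol belongs to the carboxylesterases (Ces1 to Ces5), alcohol dehydrogenases (*Adh1* to *Adh7*), aldehyde dehydrogenases (*Aldh1* to *Aldh9*), flavin-containing monooxygenases (*Fmo1* to *Fmo6*), aldo-keto reductases of the Akr1 family or aldehyde oxidases (*Aox1* to *Aox4*). The name patterns matched 72 rows, 6 of which (*Aldh1l1*, *Aldh1l2*, *Aldh3a2*, *Aldh4a1*, *Aldh18a1* and *Akr1d1*) were left out by rule, which left 66 genes of the 24346 in the table. RNA came from whole livers of male C57/BL6 mice of 8 weeks of age, 24 hours after an intraperitoneal injection of CCl4 in sunflower oil at 0.6 µl per g body weight. The 3 control livers were *med23*f/f, with a floxed but intact *Med23*. The 3 *med23*Δli livers also carried *Albumin*-cre, a recombinase driven by a hepatocyte promoter that removes the floxed part of *Med23*. The study describes this deletion as specific to hepatocytes. All 6 livers had received CCl4, so the comparison is between genotypes after CCl4, and no untreated liver entered it. At this time point the study reported marked necrosis in control livers, hardly any in *med23*Δli livers, and fewer apoptotic cells in the latter. Genotype and extent of injury therefore cannot be told apart in these values. Values are FPKM, fragments scaled to transcript length and library size, which are per length and can be compared between genes. Read counts cannot be recovered from them, the depth of each separate library is not given in the sources used here, and the spread among the 3 livers of a group is the error used throughout.

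*Med23* was read first as a check of the labels. Its FPKM was 3.42, 2.97 and 4.14 in the controls and 3.40, 3.40 and 2.91 in the *med23*Δli livers (log2 difference −0.11 ± 0.17, adjusted p = 0.685). The table gives *Med23* as a whole, not its deleted part, and whole liver includes cells that keep the gene, so this level does not check the labels. The names of the groups below are therefore the labels' own. Hepatocyte genes were high in every library, with *Alb* between 12624 and 22376 FPKM. One library stood apart in adipocyte markers, *med23*Δli replicate 2, which was the highest of the 6 libraries for 10 of 12 such genes. *Adipoq*, the adipocyte hormone adiponectin, had 5.65 FPKM there and 0 to 0.0907 FPKM elsewhere, *Cfd* (adipsin) had 23.8 FPKM against at most 0.244 FPKM, and *Fabp4*, the adipocyte fatty acid binding protein, had 176.9 FPKM against 23.2 to 66.3 FPKM. *Plin1*, *Ucp1* and *Lep* were above 0 in that library alone. The part of this in the values below was not tested beyond the fit without that library.

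Carboxylesterases split esters and amides. Alcohol and aldehyde dehydrogenases carry alcohols, retinol among them, through aldehydes to acids, and aldo-keto reductases run the reverse step on aldehydes, ketones and steroids. Flavin-containing monooxygenases oxidise nitrogen and sulfur atoms, and aldehyde oxidases use a molybdenum cofactor to oxidise aldehydes and ring nitrogen compounds. Most of these families lie as clusters of neighbouring genes that arose by duplication, and hepatocytes express many of them among their abundant transcripts.

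Of the 66 genes, 46 averaged 0.5 FPKM or more across the 6 livers and were tested, and 13 of the 46 passed at an adjusted p under 0.05 (limma, Benjamini-Hochberg over 11956 genes). *Akr1c6*, *Akr1b7*, *Fmo5*, *Adh4*, *Fmo1* and *Aldh6a1* were higher in the *med23*Δli livers, and *Adh7*, *Ces3b*, *Fmo4*, *Adh1*, *Aldh3b1*, *Akr1b8* and *Ces2a* were lower. The 6 higher stand beside 11.6% of all genes tested called higher, and the 7 lower beside 9.48% called lower. By more than 2-fold, 5 were higher (background 4.45%) and 5 lower (background 3.45%). The share called in either direction was 28.3% of the 46, beside 21.1% of all genes tested. Every *med23*Δli liver lay above every control for 11 of the 46 genes and below every control for 9 (background 23.3% and 20.4%, in either direction 43.7%). The median log2 fold change was 0.06, against 0.02 over all genes tested, and the median size of the change, sign aside, was 0.47 against 0.34. For a single gene exact permutation of 3 against 3 livers (two-sided) cannot give a p below 0.1, so the calls rest on the fit across all genes.

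The direction of the 13 called genes did not turn under any of the 16 alternative fits, but their calls depended on single livers. *Akr1c6*, *Akr1b7*, *Fmo5*, *Adh1* and *Ces3b* kept their call in all 16. The number called fell to 3 higher and 2 lower without *med23*Δli replicate 1, to 4 and 3 without replicate 2, the library with adipocyte markers (*Akr1c6*, *Akr1b7*, *Fmo5*, *Adh4*, *Adh1*, *Akr1b8* and *Ces3b*), and to 3 and 3 without replicate 3. Without control replicate 2 it was 7 and 4, without control replicate 1 it was 7 and 5, and without control replicate 3 it was 6 and 12. Of all genes tested, 1384 were called higher and 1133 lower with every liver in the fit. Without *med23*Δli replicates 1, 2 and 3 in turn these counts were 397 and 343, 478 and 424, and 553 and 384. Without control replicates 1, 2 and 3 they were 1099 and 798, 1029 and 744, and 1723 and 1420. Exons of *Adh1*, *Akr1b7* and *Aldh6a1* overlap a gene on the other strand (*Gm16559*, *Gm13857* and *Bbof1*, not analysed here).

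**Figure D1:**
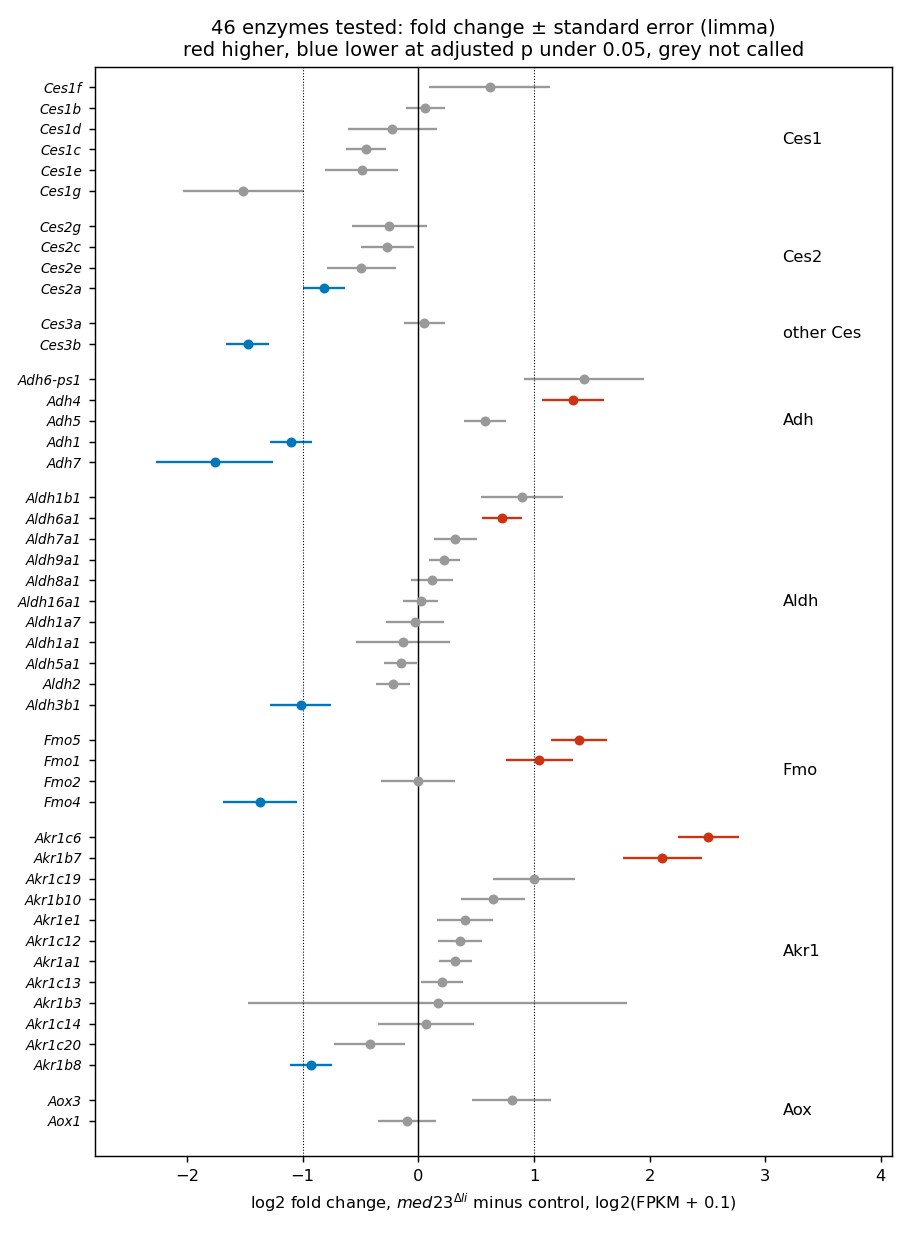
Log2 fold change (horizontal axis, *med23*Δli minus control on the log2(FPKM + 0.1) scale) with its standard error for the 46 genes tested, grouped by family. Coloured points are the 6 genes called higher and the 7 called lower, dotted lines mark a 2-fold change, and the Adh, Aldh, Fmo and Akr1 families hold calls in both directions.

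The Adh, Aldh, Fmo and Akr1 families held called genes of both directions and the called carboxylesterases were lower, so the sequence upstream of 3 higher and 3 lower genes is shown. Each line holds 200 bases, from position −250 to −51 relative to the RefSeq start (GRCm38.p6, the assembly of mm10), on the strand of the gene, with no base in an annotated exon. Capitals mark the letters AGGTCA, the core hexamer that many nuclear receptors recognise, or TGACCT, the same hexamer on the other strand. The first 3 genes were higher in the *med23*Δli livers and the last 3 were lower, with the window of each given after its sequence.
Akr1c6: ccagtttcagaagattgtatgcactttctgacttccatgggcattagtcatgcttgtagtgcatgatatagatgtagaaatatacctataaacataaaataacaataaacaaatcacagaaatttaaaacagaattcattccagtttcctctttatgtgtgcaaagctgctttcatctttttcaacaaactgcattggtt (chr13:4434093-4434292, plus strand)
Adh4: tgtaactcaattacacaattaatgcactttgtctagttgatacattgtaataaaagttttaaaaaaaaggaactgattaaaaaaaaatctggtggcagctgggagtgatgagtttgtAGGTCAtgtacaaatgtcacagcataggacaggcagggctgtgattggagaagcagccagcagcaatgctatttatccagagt (chr3:138415247-138415446, plus strand)
Akr1b7: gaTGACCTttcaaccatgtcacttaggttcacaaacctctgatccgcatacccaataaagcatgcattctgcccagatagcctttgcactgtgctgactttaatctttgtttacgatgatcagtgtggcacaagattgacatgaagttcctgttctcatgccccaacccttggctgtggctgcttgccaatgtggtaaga (chr6:34412112-34412311, plus strand)
Ces3b: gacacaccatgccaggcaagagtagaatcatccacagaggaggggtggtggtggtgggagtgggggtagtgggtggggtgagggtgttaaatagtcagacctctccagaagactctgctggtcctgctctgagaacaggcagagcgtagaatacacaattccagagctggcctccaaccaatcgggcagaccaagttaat (chr8:105083505-105083704, plus strand)
Ces2a: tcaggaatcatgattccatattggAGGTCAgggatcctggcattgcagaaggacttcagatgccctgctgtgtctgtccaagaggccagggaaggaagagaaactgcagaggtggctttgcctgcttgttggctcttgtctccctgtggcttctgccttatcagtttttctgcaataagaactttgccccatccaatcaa (chr8:104733753-104733952, plus strand)
Aldh3b1: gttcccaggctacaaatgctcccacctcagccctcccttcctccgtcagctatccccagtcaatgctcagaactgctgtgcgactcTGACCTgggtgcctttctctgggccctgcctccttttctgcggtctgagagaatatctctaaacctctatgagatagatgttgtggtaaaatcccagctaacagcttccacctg (chr19:3929829-3930028, minus strand)

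The hexamer begins at position −133 in *Adh4*, −226 in *Ces2a*, −164 in *Aldh3b1* and −248 in *Akr1b7*, and these letters are not in the windows of *Akr1c6* and *Ces3b*. The genes shown are a selection and do not give the share of called genes with the hexamer. *Adh7*, called lower, also has a window with no exon base, lacks these letters and is not shown. RefSeq windows were at hand for 51 of the 66 genes (56 windows, since some genes have several starts) and for 12 of the 13 called. AGGTCA on either strand was in 9 of the 56 windows (16.1%) and in 11.4% of 32851 windows of all genes. Among called genes it was in the windows of 3 that were higher (*Adh4*, *Akr1b7* and *Aldh6a1*) and 3 that were lower (*Aldh3b1*, *Ces2a* and *Fmo4*). TGACNNNGC, the core of the antioxidant response element that NRF2 recognises, was in 4 windows (7.14%, against 7.66% of all), none of them of a called gene. The E-box CACGTG was in 1 window, of *Aox4* (1.79%, against 4.34% of all). The palindromic HNF1 site and the C/EBP palindrome TTGCGCAA were in none (0.00304% and 0.128% of all windows).

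The alcohol dehydrogenases moved in opposite directions along their cluster on chromosome 3. Among the 5 tested, 1 was called higher and 2 lower, where 21.1% of all genes tested were called. *Adh1* (chr3:138260991-138290698), the main ethanol dehydrogenase of the liver and the most abundant of all 66 genes in both groups, stood at 875, 1114 and 800.1 FPKM in the controls. It stood at 463, 362 and 469.8 FPKM in the *med23*Δli livers, all below every control (log2 fold change −1.10 ± 0.18, adjusted p = 0.00771). *Adh7* (chr3:138217760-138233382), which is best known from stomach and acts on retinol, had 2.46, 11.1 and 7.13 FPKM in the controls and 1.48, 2.43 and 1.24 FPKM in the *med23*Δli livers. The controls of *Adh7* spread widely and their lowest value sat just above the highest *med23*Δli value (log2 fold change −1.76 ± 0.51, adjusted p = 0.0443). Its adjusted p lay between 0.0727 and 0.145 without control replicate 2, without control replicate 3 or without any of the *med23*Δli replicates, and the log2 fold change was −2.37 without control replicate 1. The transcript *0610031O16Rik* overlaps *Adh7* on the other strand, with a log2 difference of −0.04 and an adjusted p of 0.931, and cannot be told apart from it where the counting ignored strand, which the sources used here do not state.

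*Adh4* (chr3:138415466-138430892), a retinol dehydrogenase, rose from 22.8, 13.9 and 10.5 FPKM in the controls to 41.2, 32.4 and 41.1 FPKM (log2 fold change 1.34 ± 0.27, adjusted p = 0.0147). The groups did not overlap, and the adjusted p was 0.0610 without *med23*Δli replicate 1 and 0.0634 without replicate 3. *Adh5*, the formaldehyde and S-nitrosoglutathione dehydrogenase found in every tissue, had 101, 107 and 70.2 FPKM against 138, 123 and 148 FPKM. Its groups did not overlap either, but it did not pass (log2 fold change 0.58 ± 0.18, adjusted p = 0.0581). The pseudogene *Adh6-ps1* was low, with 0.125 to 0.986 FPKM against 1.17 to 1.35 FPKM (adjusted p = 0.0835). *Adh1* made up 89.0% ± 1.37 (SD, n = 3) of the summed Adh FPKM in the controls and 70.8% ± 1.20 in the *med23*Δli livers, while the share of *Adh5* was 8.83% ± 1.10 against 22.4% ± 1.11 and that of *Adh4* was 1.53% ± 0.654 against 6.27% ± 0.0997.

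Among the 12 aldo-keto reductases tested, *Akr1c6* and *Akr1b7* rose and *Akr1b8* fell, a share called of 25% beside 21.1% of all genes tested. *Akr1c6* (chr13:4434306-4457877), a hydroxysteroid dehydrogenase of liver that acts on androgens and estrogens, had the largest change of the 46 genes. It was at 82.3, 94.0 and 47.4 FPKM in the controls and at 448, 333 and 451 FPKM in the *med23*Δli livers (log2 fold change 2.51 ± 0.26, adjusted p = 0.00188). The lowest *med23*Δli liver was thus far above the highest control, and the ratio of the group means was 5.51. Ordered by mean FPKM among the 66 genes, *Akr1c6* was at place 9 in the controls and at place 3 in the *med23*Δli livers, behind *Adh1* and *Akr1a1*.

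*Akr1b7* (chr6:34412334-34423142), an aldose reductase-like enzyme that reduces lipid aldehydes, was low in the controls at 1.29, 0.483 and 1.36 FPKM. It was at 4.40, 4.87 and 4.15 FPKM in the *med23*Δli livers, without overlap (log2 fold change 2.11 ± 0.34, adjusted p = 0.00765), and with a pseudocount of 1 in place of 0.1 the log2 fold change was 1.45. The neighbouring *Akr1b8*, a related reductase known as a growth factor-induced gene, fell by 0.92 on the log2 scale (adjusted p = 0.0137). Its adjusted p was 0.0639 without *med23*Δli replicate 1 and 0.0583 without replicate 3. *Akr1a1*, the aldehyde reductase that serves ascorbate synthesis, was the most abundant of the family. It had 346, 356 and 292 FPKM against 449, 401 and 389 FPKM, which do not overlap, and did not pass (log2 fold change 0.32 ± 0.14, adjusted p = 0.137).

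*Akr1c19* came closest to a call among the remaining reductases, at a log2 fold change of 1.00 ± 0.36 and an adjusted p of 0.0799, with overlapping groups. *Akr1b3*, aldose reductase itself, could not be read, because control replicate 3 (0.000239 FPKM) and *med23*Δli replicate 1 (0.000387 FPKM) were near 0 while the other livers had 2.34 to 3.42 FPKM. Of its windows of 50 bases, 9.48% are shared with other genes, most often with the gene *Gm6644*. *Akr1c12* and *Akr1c13*, which share 28.6% and 24.2% of their windows of 50 bases with other genes, above all with each other, are also uncertain, and neither passed.

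Of the 4 monooxygenases tested, 2 were called higher and 1 lower, where 21.1% of all genes tested were called, and of these 3 only *Fmo5* kept its call without *med23*Δli replicate 1 or without replicate 2. *Fmo5* (chr3:97628804-97655282), which in liver inserts oxygen next to ketones, had 41.9, 26.1 and 25.0 FPKM in the controls and 88.3, 60.9 and 91.7 FPKM in the *med23*Δli livers. All *med23*Δli livers were above all controls (log2 fold change 1.39 ± 0.24, adjusted p = 0.00963). *Fmo1* (chr1:162829561-162866610), a broad oxidase of nitrogen- and sulfur-containing drugs, had 23.4, 28.6 and 15.2 FPKM against 42.8, 33.8 and 62.7 FPKM. Its groups did not overlap (log2 fold change 1.05 ± 0.29, adjusted p = 0.0375), but it passed in only 6 of the 16 alternative fits. Leaving out control replicates 1 and 3 in turn gave adjusted p values of 0.0802 and 0.0612, and leaving out *med23*Δli replicates 1, 2 and 3 gave 0.0997, 0.0513 and 0.118. It was also 0.0507 after median centring and 0.0544 after quantile normalization.

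*Fmo4* (chr1:162793188-162813972), the neighbour of *Fmo1*, went the other way. It had 3.93, 4.89 and 2.95 FPKM in the controls and 1.17, 1.03 and 2.35 FPKM in the *med23*Δli livers, without overlap (log2 fold change −1.37 ± 0.32, adjusted p = 0.0233). Leaving out control replicates 1 and 2 in turn gave adjusted p values of 0.0663 and 0.0646, and leaving out *med23*Δli replicates 1 and 2 gave 0.0869 and 0.0820. *Fmo2*, mainly a lung enzyme, had a log2 fold change near 0 and an adjusted p of 0.993.

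Among the 12 carboxylesterases tested, *Ces3b* and *Ces2a* were called, both lower, where 21.1% of all genes tested were called and 9.48% were lower. *Ces3b* (chr8:105083753-105093929), a carboxylesterase of the hepatocyte, had 71.2, 78.5 and 49.5 FPKM in the controls. In the *med23*Δli livers it had 23.1, 24.3 and 22.7 FPKM, which lie close together and below every control (log2 fold change −1.48 ± 0.18, adjusted p = 0.00347). Its neighbour *Ces3a* was far more abundant and had 420.3, 395 and 280.2 FPKM against 399.7, 378 and 344 FPKM (log2 fold change 0.05 ± 0.18, adjusted p = 0.856). Of their windows of 50 bases, 25.6% in *Ces3a* and 26.2% in *Ces3b* are shared with other genes, above all with each other, and fragments from those stretches cannot be told apart. *Ces3b* per unit of *Ces3a* was 0.169, 0.199 and 0.177 in the controls and 0.0578, 0.0643 and 0.0660 in the *med23*Δli livers, a ratio chosen after its values were seen.

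*Ces2a*, an intestinal and hepatic esterase that also hydrolyses glycerides, had 73.0, 107.8 and 71.3 FPKM in the controls and 44.0, 50.2 and 46.4 FPKM in the *med23*Δli livers. The groups did not overlap, and it fell by 0.82 on the log2 scale (adjusted p = 0.0198). Its adjusted p was 0.0814, 0.0595 and 0.0702 without *med23*Δli replicates 1, 2 and 3, and 17.3% of its windows are shared with other genes, most with *Gm7208*. *Ces2e*, the next most abundant of that group, had 39.0, 44.8 and 18.8 FPKM against 23.4, 23.8 and 20.99 FPKM. Control replicate 3 lay below all *med23*Δli livers, and the gene passed only without that replicate (log2 fold change −0.88, adjusted p = 0.00663, against −0.49 and 0.263 with it). *Ces2c* and *Ces2g* did not pass. All 4 fold changes of the tested Ces2 genes were negative, from −0.82 to −0.25.

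No Ces1 gene passed. *Ces1c*, which in mice is secreted into plasma, had 376, 287 and 252 FPKM in the controls and 226, 202 and 234 FPKM in the *med23*Δli livers. The groups did not overlap, yet the adjusted p was 0.1004 (log2 fold change −0.45 ± 0.17), and it was 0.0413 without control replicate 3 and 0.0458 after quantile normalization. *Ces1d*, the triacylglycerol hydrolase, had 51.0, 83.1 and 29.2 FPKM against 56.9, 29.4 and 46.3 FPKM and overlapped fully (log2 fold change −0.23 ± 0.38, adjusted p = 0.699). The largest fold change of the group, −1.51 ± 0.52 for *Ces1g*, had an adjusted p of 0.0742 and overlapping groups, 1.23 to 6.13 FPKM against 0.744 to 1.42 FPKM.

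Of the 11 aldehyde dehydrogenases tested, 1 was called higher and 1 lower, a share of 18.2% beside 21.1% of all genes tested. *Aldh6a1*, the methylmalonate semialdehyde dehydrogenase of valine breakdown, rose by 0.72 on the log2 scale (adjusted p = 0.0245). Its adjusted p was 0.0565 without control replicate 2 and 0.0737, 0.0908 and 0.0814 without *med23*Δli replicates 1, 2 and 3. *Aldh3b1* (chr19:3913491-3929808), which oxidises medium- and long-chain aldehydes, had 4.40, 5.89 and 2.83 FPKM in the controls and 1.82, 1.89 and 2.39 FPKM in the *med23*Δli livers. The groups did not overlap (log2 fold change −1.02 ± 0.27, adjusted p = 0.0330), and 8.97% of its windows are shared with other genes, most with *Aldh3b3*. The adjusted p of *Aldh3b1* lay between 0.0693 and 0.112 without control replicate 1, without control replicate 2 or without any of the *med23*Δli replicates.

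*Aldh2*, the mitochondrial acetaldehyde dehydrogenase and the most abundant of its family, had 433, 547 and 431 FPKM against 406, 378 and 422 FPKM. All *med23*Δli livers were below all controls by a small margin, and the gene did not pass (log2 fold change −0.22 ± 0.15, adjusted p = 0.311). *Aldh1a1*, which turns retinaldehyde into retinoic acid, had 113, 330.1 and 102 FPKM in the controls and 143, 125 and 163 FPKM in the *med23*Δli livers. Control replicate 2 stood apart, and without it the log2 fold change turned from −0.13 to 0.41 (adjusted p = 0.116, against 0.842 with it). *Aldh1b1*, another mitochondrial enzyme, had no overlap and an adjusted p of 0.107 (log2 fold change 0.89 ± 0.35). The log2 fold changes of *Aldh7a1*, *Aldh9a1*, *Aldh8a1*, *Aldh16a1*, *Aldh1a7* and *Aldh5a1*, which include enzymes of lysine breakdown, carnitine synthesis and succinic semialdehyde removal, lay between −0.15 and 0.32, and none of them passed.

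Neither aldehyde oxidase passed, and the 2 liver forms had different fold changes. *Aox1* had 19.0, 16.1 and 9.43 FPKM in the controls and 15.1, 12.3 and 12.8 FPKM in the *med23*Δli livers (log2 fold change −0.10 ± 0.25, adjusted p = 0.805), and the fold change was 0.11 without control replicate 1. *Aox3* had 14.9, 9.64 and 5.05 FPKM against 17.5, 15.3 and 14.7 FPKM (log2 fold change 0.81 ± 0.34, adjusted p = 0.125), and it passed without control replicate 1 (1.17, adjusted p = 0.0396). In the controls *Aox1* was above *Aox3* in every liver, and in the *med23*Δli livers *Aox3* was above *Aox1* in every liver. *Aox3* per unit of *Aox1* was 0.783, 0.597 and 0.536 against 1.17, 1.25 and 1.15, a ratio chosen after its values were seen, and 44.2% of all neighbouring pairs of tested genes did not overlap in their ratio. Of the 5 genes that make the molybdenum cofactor of these enzymes, 2 were lower, where 9.48% of all genes tested were lower (*Mocs3*, log2 fold change −0.94, adjusted p = 0.0465, and *Mocos*, which loads sulfur onto the cofactor, −0.88, adjusted p = 0.0165), none was higher, and the median was −0.40. With 1 liver left out, 0 to 2 of the 5 were lower, 1 without control replicate 2 or 3 and 0 without any of the *med23*Δli replicates.

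**Figure D2:**
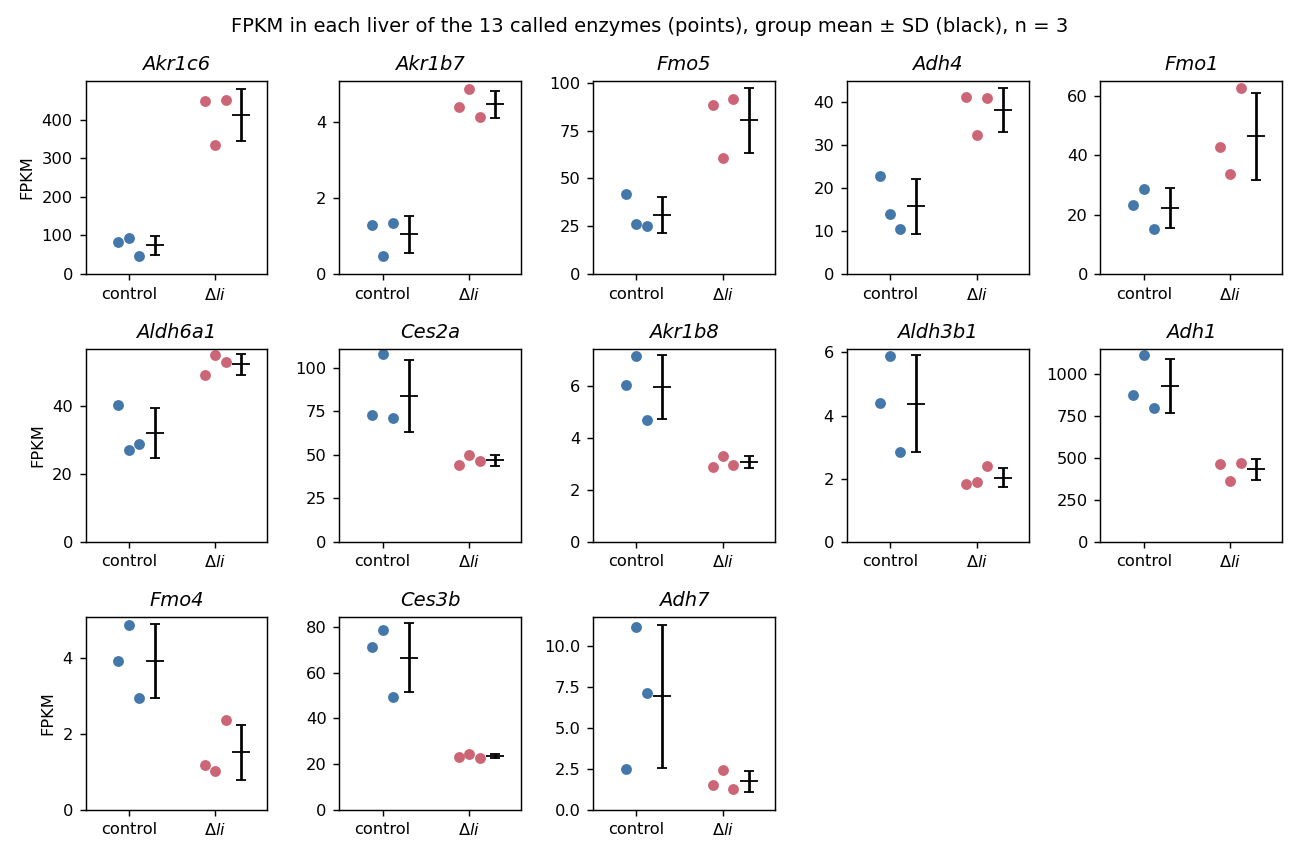
FPKM in each liver (vertical axes, each from 0) for the 13 called genes, with the group mean and SD of 3 livers in black. In all 13 panels the groups do not overlap, by the narrowest margin for *Adh7* (2.46 in the lowest control and 2.43 in the highest *med23*Δli liver).

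Neighbouring genes of a cluster were then set against each other within each liver, which removes a scale factor common to both genes. *Akr1c6* per unit of *Akr1c20*, its neighbour, was 3.83, 4.17 and 4.43 in the controls and 30.0, 34.9 and 30.0 in the *med23*Δli livers. *Fmo4* per unit of *Fmo1* was 0.168, 0.171 and 0.194 in the controls and 0.0275, 0.0305 and 0.0375 in the *med23*Δli livers. *Adh4* per unit of *Adh1* was 0.0261, 0.0125 and 0.0131 against 0.0889, 0.0894 and 0.0874. Against its other tested neighbour, *Akr1c12*, *Akr1c6* was at 2.98, 3.45 and 2.49 in the controls and at 12.9, 9.98 and 17.4 in the *med23*Δli livers, which spread more widely. For *Adh4* control replicate 1 lay apart. These ratios were chosen after their values were seen and carry no test.

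Over the 27 pairs of tested genes that follow each other in a cluster, the log2 ratio did not overlap between the groups for 14 (51.9%), beside 44.2% of 10149 neighbouring pairs of all tested genes. The difference between the groups had a median size of 0.79 on the log2 scale, against 0.50 over all neighbouring pairs, and exceeded 1 in 11 pairs (40.7%, against 19.8%). Pairs that share a gene are not independent, and the low genes *Adh6-ps1* and *Akr1b3* enter 3 of the 27. The clusters span 237.7 kb for *Adh7* to *Adh5*, 560.2 kb for *Akr1c14* to *Akr1e1*, 120.7 kb for *Akr1b3* to *Akr1b7*, 515.6 kb for *Ces1a* to *Ces5a* and 416.1 kb for *Ces2a* to *Ces4a*. *Akr1c6* was the only called gene of the 7 tested in its cluster, where 21.1% of all genes tested were called, and *Adh7* and *Adh1*, which fell, lie at one end of their cluster while *Adh4*, which rose, lies near the other.

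**Figure D3:**
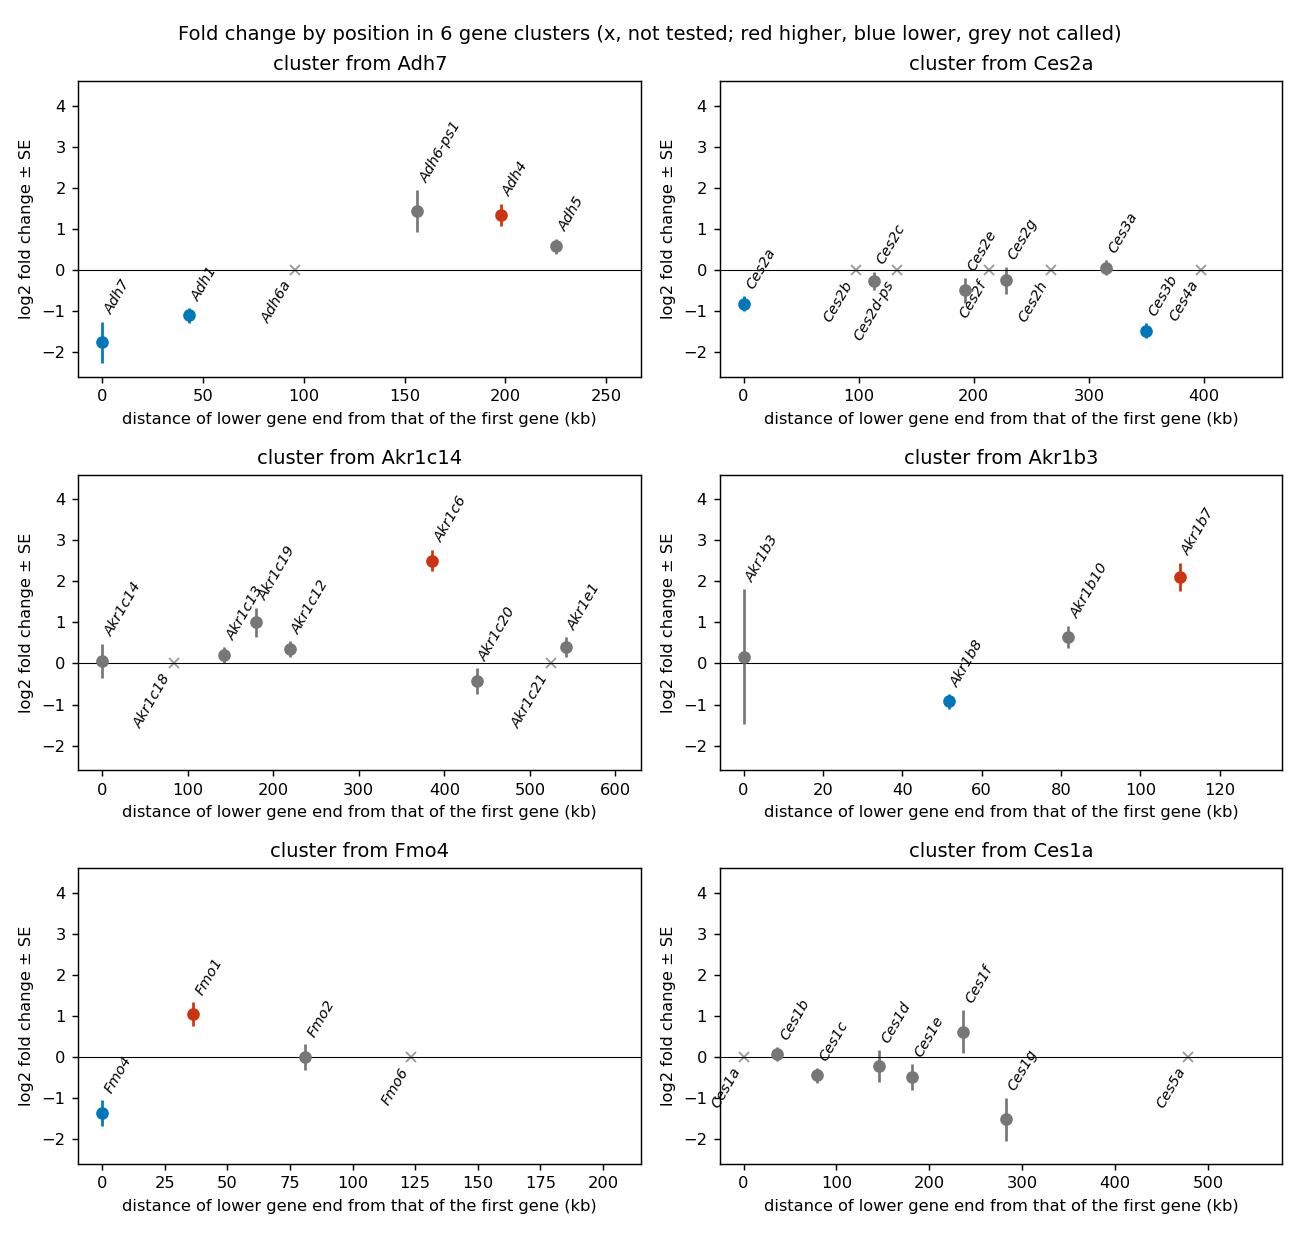
Log2 fold change with its standard error (vertical axis) against the distance in kb of each gene's lower end on the chromosome from that of the first gene of its cluster (horizontal axis), for 6 clusters. Crosses are genes under the filter, and the panels show lower genes beside higher ones in the Adh, Fmo and Akr1b clusters.

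**Figure D4:**
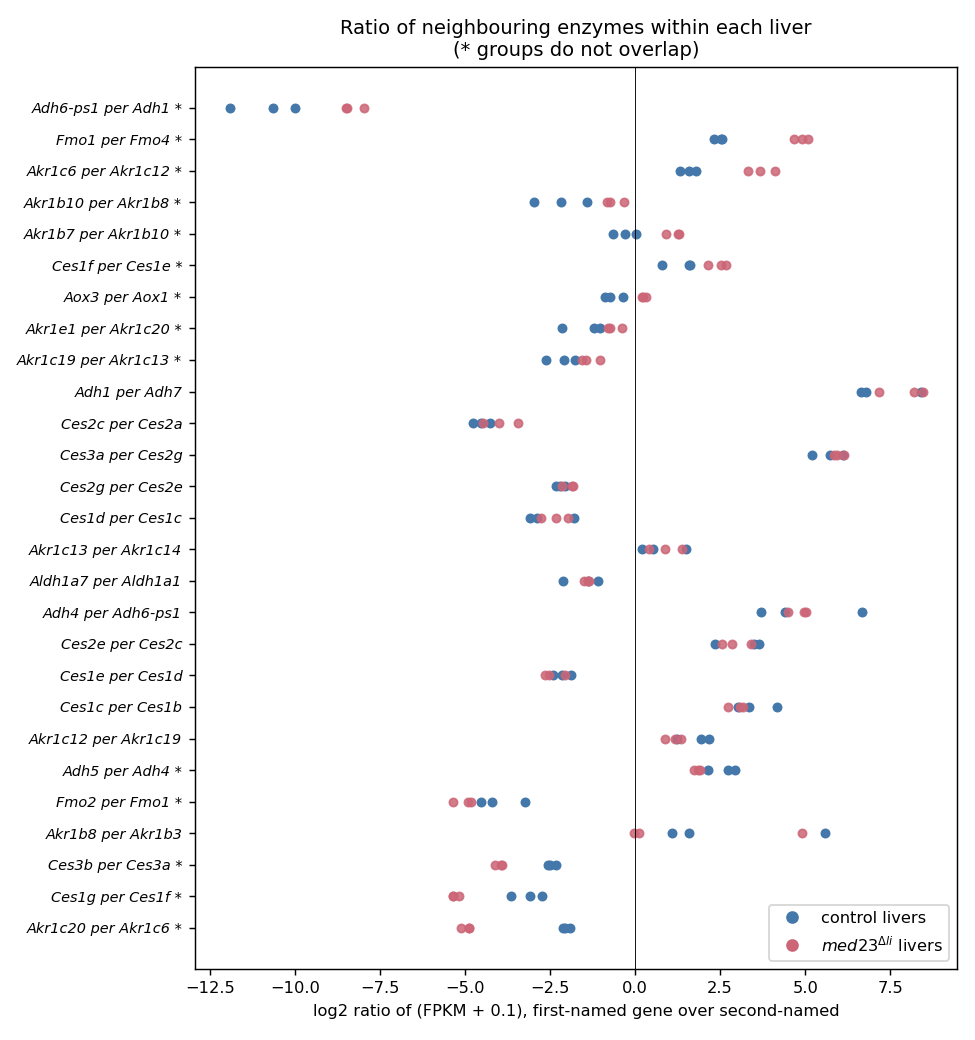
Log2 ratio of the FPKM of neighbouring genes within each liver (horizontal axis, first-named gene over second-named, 0.1 added to both), with 3 control and 3 *med23*Δli livers per pair, ordered by the difference between the groups. Stars mark the 14 of 27 pairs whose groups do not overlap.

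FPKM were also summed over each family. The Fmo genes summed to 70.2, 61.1 and 44.7 FPKM in the controls and 133, 96.9 and 159 FPKM in the *med23*Δli livers, a ratio of means of 2.21. The Akr1 genes summed to 564, 595 and 421 FPKM against 1046, 866 and 969 FPKM (ratio 1.82), with *Akr1c6* at 13.9% ± 2.36 (SD, n = 3) of the sum in the controls and 42.6% ± 4.05 in the *med23*Δli livers. The Adh genes summed to 1001, 1246 and 888 FPKM against 644, 521 and 661 FPKM (ratio 0.582), and the Ces2 genes to 123, 167 and 97.6 FPKM against 77.8, 81.4 and 76.3 FPKM (ratio 0.607). In these 4 of 8 families the groups did not overlap, where 43.7% of all single genes tested did not. They overlapped for Ces1 (ratio 0.796), the other carboxylesterases (0.920), Aldh (0.940) and Aox (1.18). All 66 genes together summed to 2911 to 4243 FPKM in the controls and 3149 to 3653 FPKM in the *med23*Δli livers, 0.484% to 0.652% of all FPKM of a liver, with a ratio of 0.956. Sums carry no test, and each is led by its most abundant genes.

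**Figure D5:**
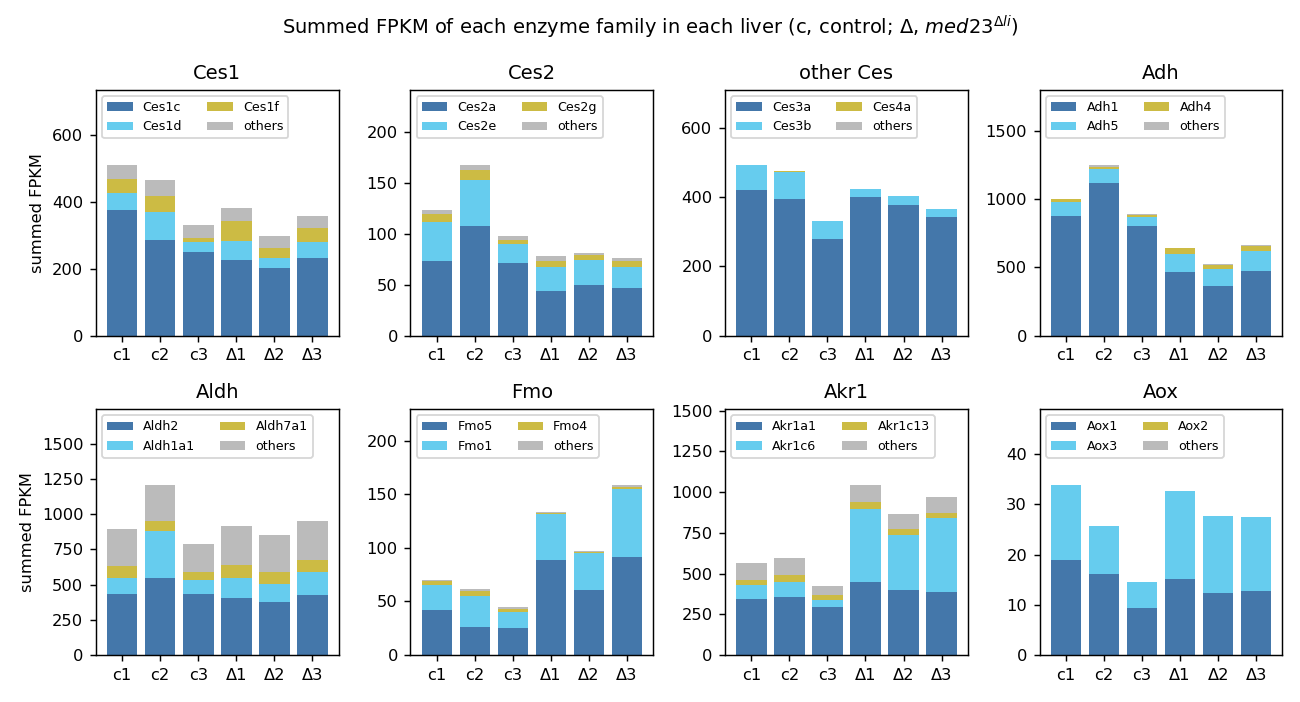
Summed FPKM of each enzyme family in each liver (vertical axes, each from 0), with the 3 most abundant genes of the family coloured and the others grey, for controls c1 to c3 and *med23*Δli livers Δ1 to Δ3. The Fmo and Akr1 bars are taller in every *med23*Δli liver, through *Fmo5*, *Fmo1* and *Akr1c6*, and the Adh and Ces2 bars are shorter.

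The controls varied more than the *med23*Δli livers in these genes. The SD of log2 FPKM was larger among controls for 42 of the 46 genes (91.3%, against 72.6% of all genes tested), with a median of 0.47 among controls and 0.19 among *med23*Δli livers (0.25 and 0.15 over all genes). Control replicate 3 was the lowest control for 35 of the 46, where it was the lowest for 35.8% of all genes tested. Among the *med23*Δli livers, replicate 2, which carried the adipocyte markers, was the lowest for 23 of the 46 and for 24.2% of all genes tested, and replicate 3 for 14 of the 46 and for 48.8% of all. The part of this spread in the calls beyond the values without each replicate above was not tested.

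The remaining 20 genes were under the filter, with means of at most 0.266 FPKM. *Adh6a*, *Akr1cl*, *Aldh3a1*, *Ces2f*, *Ces5a* and *Fmo6* were listed at 0 in every liver. *Akr1c18*, *Akr1c21*, *Aldh1a2*, *Aldh1a3*, *Aldh3b2*, *Aldh3b3*, *Aox2*, *Aox4*, *Ces1a*, *Ces2b*, *Ces2d-ps*, *Ces2h* and *Ces4a* were above 0 in at least 1 liver. Of the 6 genes left out by rule, *Aldh1l2*, *Aldh3a2* and *Aldh4a1* were called higher, with log2 fold changes of 4.18, 0.50 and 0.77, and the other three did not pass. With 1 liver left out, 1 to 5 of the 6 were called higher.

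Genes that work beside these enzymes were counted in the same fit, in which 11.6% of all genes tested were higher and 9.48% lower. Of 37 other phase I enzymes, 12 were higher and 4 lower, with a median of 0.38. The higher ones included *Esd*, an esterase that releases glutathione from the formylglutathione that the *Adh5* enzyme forms (log2 fold change 1.44, adjusted p = 0.00131). Also among them were *Xdh*, the molybdenum enzyme related to the aldehyde oxidases (0.94, adjusted p = 0.00529), and *Sord*, which takes sorbitol from aldose reductase on to fructose (0.77, adjusted p = 0.0266). The lower ones were the carbonyl reductases *Cbr1* (−1.48, adjusted p = 0.00770) and *Cbr3* (−2.37, adjusted p = 0.0245), the quinone reductase *Nqo1* (−2.20, adjusted p = 0.0305) and *Hsd11b1*, which regenerates active glucocorticoid (−1.05, adjusted p = 0.0118). Of 17 tested genes of retinoid handling, 3 were higher (*Dhrs3*, *Rbp4* and *Cyp26a1*) and 3 lower, among them *Cyp26b1* and *Rarg*, with a median of 0.03. Of 18 NRF2 target genes outside the 66, 5 were higher (*Hmox1*, *Slc7a11*, *Taldo1*, *Me1* and *Abcc4*) and 4 lower (*Nqo1*, *Gclc*, *G6pdx* and *Gsr*), with a median of −0.07. Control replicate 2 stood apart in the NRF2 targets and was the highest of the 6 libraries for 11 of the 18. Their sum was 2985 FPKM there, 1838 and 1440 FPKM in the other controls and 1601 to 2020 FPKM in the *med23*Δli livers. *Nqo1* had 22.6 FPKM there against 6.59 and 3.85 FPKM in the other controls, and *G6pdx* had 29.0 against 10.9 and 11.5 FPKM. Without that library 4 targets were higher and 4 lower. The counts of these lists depended on single livers, as did those of all genes tested. Over all genes, 1384 higher and 1133 lower became 397 and 343, 478 and 424, and 553 and 384 without *med23*Δli replicates 1, 2 and 3 in turn. Without *med23*Δli replicates 1, 2 and 3 in turn, 4, 5 and 6 of the other phase I enzymes were higher and 2, 2 and 1 lower, against 10 to 14 higher and 4 to 5 lower without a control. Of the retinoid genes, 0 to 3 were higher and 0 to 2 lower with 1 liver left out, none in either direction without *med23*Δli replicate 1, and without the filter 0 were higher and 1 lower. Of the NRF2 targets, 2 to 3 were higher and 0 to 2 lower without a *med23*Δli replicate, and 4 to 5 higher and 3 to 5 lower without a control.

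Some cell type and zone markers moved with the groups too, in the fit where 11.6% of all genes tested were higher and 9.48% lower. Of 16 tested pericentral hepatocyte genes 6 were higher and none lower (summed FPKM 682 to 923 in the controls and 1668 to 1732 in the *med23*Δli livers), and of 18 periportal genes 7 were lower and none higher (3319 to 4644 against 2443 to 2966). Of 19 male-predominant liver genes 9 were lower and 2 higher (16543 to 23575 against 8226 to 10113), and of 9 tested female-predominant genes 2 were higher and 1 lower (15.9 to 48.8 against 49.7 to 81.9). All 9 endothelial markers were lower (118 to 163 against 61.5 to 67.5). Of 17 general hepatocyte genes 1 was higher and 4 lower (57166 to 73193 against 50531 to 59289). No macrophage, neutrophil or cholangiocyte marker was called (11, 5 and 6 tested, summed FPKM 322 to 401, 43.3 to 137 and 63.9 to 110 in the controls against 354 to 380, 40.4 to 100.4 and 61.7 to 100.04 in the *med23*Δli livers). *Des* alone of 12 stellate cell markers was lower, with 3.99 to 4.64 FPKM in the controls and 2.42 to 3.25 FPKM in the *med23*Δli livers (adjusted p = 0.0497), and the stellate list summed to 103 to 132 against 85.5 to 114 FPKM. *Cidec* alone of 7 tested adipocyte markers was called, as lower (19.2, 77.6 and 46.7 FPKM against 4.99, 9.46 and 1.63 FPKM). The median log2 fold change of the 7 was 1.37, and the adipocyte list summed to 74.0 to 147 FPKM in the controls, 236 FPKM in *med23*Δli replicate 2 and 29.4 and 35.3 FPKM in the other *med23*Δli livers. *Hba-a1* alone of 6 tested erythroid markers was called, as higher, with 0.000282, 0 and 0.00311 FPKM in the controls and 18.0, 4.77 and 0.139 FPKM in the *med23*Δli livers, and it is uncertain because a near-identical copy of the gene exists. The erythroid list summed to 84.9 to 229 FPKM against 124 to 209 FPKM. All 8 pancreas markers were under the filter and 6 of them were listed at 0 in every liver. Of 10 reference genes *Rplp0* was higher and *Actb* lower. With each liver left out in turn, 5 to 7 pericentral genes were higher, 3 to 7 periportal genes lower and 0 to 1 higher, 4 to 9 male-predominant genes lower, 1 to 4 female-predominant genes higher, 6 to 9 endothelial markers lower and 1 to 7 hepatocyte genes lower. In these fits 397 to 1723 of all genes tested were higher and 343 to 1420 lower. The count of lower periportal genes was 3 without *med23*Δli replicate 1 or 3 and 4 without control replicate 1, and that of lower male-predominant genes was 4 or 5 without control replicate 2 or any of the *med23*Δli replicates. Hepatocyte genes lower were 1 or 2 without control replicate 1 or any of the *med23*Δli replicates and 7 without control replicate 3, and female-predominant genes higher were 1 without the same 4 livers and 3 to 4 without the other controls. The single calls of *Des*, *Cidec* and *Hba-a1* also came and went, with 0 to 2 stellate cell, 0 to 2 adipocyte and 0 to 1 erythroid markers called in these directions. In whole liver, fewer cells of a type and less RNA per cell cannot be told apart, and the part of these shifts in the values of the 66 genes was not tested.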

How the data were processed

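Whole livers of 6 mice were sequenced as paired reads. Per the methods of the study, the authors assessed reads with FastQC, trimmed adapters, aligned reads with TopHat to the mm10 assembly and quantified genes with Cuffdiff; versions, annotation, strand setting and Cuffdiff options are not given in the sources used here. The table deposited by the authors holds FPKM per library and gene. Its group values, fold changes, p-values and q-values are the authors' own comparison and were not used. All per-library columns were mapped to a sample (0 were not).

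Values were taken as log2(FPKM + 0.1), and the 11956 of 24346 genes that averaged 0.5 FPKM or more across the 6 libraries were compared in limma (version 3.58.1, R version 4.3.3: lmFit, eBayes with a mean-variance trend, no block, two-sided), with Benjamini-Hochberg adjustment over all of them. A gene was called at an adjusted p under 0.05, and by more than 2-fold where the log2 fold change also exceeded 1 in size. Fold changes on this scale understate those of low genes. Replicate numbers were not used as pairs in this fit, and the labels do not say whether they pair the livers. FPKM give no counts, so precision comes from 3 livers per group, and the labels do not tie a liver to a litter.

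Values in every liver are given for genes called by more than 2-fold and for the 2 most abundant genes of each family; other called genes are given by fold change, and any further gene named was chosen after its values were seen. Some genes counted are not reported here by name. Members and lists were chosen with earlier results of these data known. The lists were other phase I enzymes, molybdenum cofactor, retinoid, NRF2, sex-biased, zonal and reference genes and markers of hepatocytes and 8 other cell types. Gene positions, overlaps and shared windows of 50 bases come from GENCODE M21 (66 of 66 genes), upstream sequences from RefSeq (GRCm38.p6). The 16 alternatives changed the pseudocount (1 or 0.01), dropped the filter or set it at 1 FPKM, or used median centring, quantile normalization, equal summed FPKM, eBayes without a trend, robust eBayes, a replicate block or 5 of the 6 libraries; a threshold of 0.01 was also tried. The rest used Python 3.11.15 with pandas 2.3.3, numpy 2.4.6, matplotlib 3.10.9 and scipy 1.17.1.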

Additional observations from a re-analysis of the deposited data

How the results depend on the processing

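All 13 called genes kept their direction under the 16 alternatives. Against 6 genes of the 66 called higher and 7 lower (5 and 5 by more than 2-fold, and 1384 and 1133 of all genes, 532 and 412 by more than 2-fold), a pseudocount of 1 left 3 lower by more than 2-fold (229 of all genes), and fitting without the filter, which adjusts over more genes, left 4 lower and 2 lower by more than 2-fold. An adjusted p under 0.01 left 3 higher and 2 lower, all of them by more than 2-fold (3 and 2), and of all genes 344 higher and 239 lower, 285 and 186 by more than 2-fold. Leaving out each replicate in turn, which fits fewer samples, gave 3 to 7 genes higher, 2 to 12 lower, 3 to 7 higher by more than 2-fold and 1 to 6 lower by more than 2-fold. Over all genes it gave 397 to 1723 higher, 343 to 1420 lower, 321 to 718 higher by more than 2-fold and 255 to 531 lower by more than 2-fold. The median log2 fold change of the 66 genes' tested members ran from −0.085 to 0.18 in these fits. Of the genes named but not called, the fold change changed sign for *Ces3a* with quantile normalization (−0.094) and without control replicate 3 (−0.13), *Aox1* without control replicate 1 (0.11), *Ces1d* without control replicate 2 (0.14) and without *med23*Δli replicate 2 (0.042) and *Aldh1a1* without control replicate 2 (0.41), and the cause was not tested. With each replicate left out they ranged from −0.13 to 0.16 for *Ces3a*, −0.39 to 0.11 for *Aox1*, −0.61 to 0.14 for *Ces1d* and −0.44 to 0.41 for *Aldh1a1*. *Adh5* passed when libraries were set to equal summed FPKM (0.0444, limma adjusted p), and *Adh7* lost its call without the trend (0.0577) and with robust eBayes (0.0683). The replicate numbers are shared by the groups, and the labels do not say whether they pair the livers. Deviations from the group means of same-numbered livers correlated at −0.02, −0.05 and −0.12 over 11956 genes, and no liver correlated best with its own number. With so few livers per group these correlations cannot exclude a shared litter, day or batch. With the number as a replicate block, 4 genes were higher and 5 lower, 3 of these by more than 2-fold, and 809 of all genes were higher and 614 lower. The block fit gave *Fmo1*, *Fmo4*, *Aldh3b1* and *Aldh6a1* adjusted p values of 0.0827, 0.0573, 0.0686 and 0.0553.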
